A study of Mus musculus with 3 samples.

Results

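The Lypd1-rich spots were the 180 spots, 60 in each of 3 mouse brain sections, with the highest summed expression of Lypd1, Grp, Nr2f2, Lmo3 and Hpcal1. They were drawn from 10239 spots with at least 3000 UMIs (unique molecular identifiers, each standing for 1 captured RNA molecule). Each spot's score was the sum over the 5 genes of ln(1 + counts per 10000 UMIs), and the 60 highest scores of each section were taken. Measured values therefore chose the spots, and the levels of the 5 genes in them describe the choice. The set had been named for amygdala and piriform cortex. Known marker genes of those regions were high in part of the spots of both control sections and in few spots of the third section, so the spots are called here by their leading gene.

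The study asked how exercise and ageing alter the molecular profile of the mouse brain, and measured it in tissue sections on 10x Visium arrays. On such an array polyadenylated RNA is captured on a grid of barcoded spots, and a spot can hold several cells of different types or parts of cells. The 3 sections were brain of C57BL/6J mice: Y-Ctrl and O-Ctrl carry the treatment label Control, and O-Ex carries the treatment label Exercise. Y and O stand for young and old by the study's title and aim, and neither their ages and sex nor the exercise regime or the animal numbers are given in the sources used here. All 3 were 10 µm fresh frozen sections fixed in methanol and stained with haematoxylin and eosin. The labels call the molecule nuclear RNA, while the protocol describes whole sections. With 1 section in each group there was no replicate check and no test, and the spots of a section are not replicates of a condition.

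Lypd1 encodes a small membrane-anchored protein of the Ly6 and lynx family, which binds nicotinic acetylcholine receptors and dampens their response. It is made by subsets of glutamatergic neurons, and mice without it show more anxiety-like behaviour. The amygdala and the neighbouring piriform cortex hold glutamatergic neurons that process fear and odour, and gastrin-releasing peptide, the product of Grp, is made by some of the principal neurons of the lateral amygdala. Nr2f2 encodes the nuclear receptor COUP-TFII, Lmo3 a LIM-domain transcription cofactor and Hpcal1 a calcium sensor of the visinin-like family. Lypd1 (ENSMUSG00000026344) is a protein-coding gene of chromosome 1 (125867622 to 125913101, minus strand, mm10).

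The 60 spots made up 1.76% of the 3409 spots kept in Y-Ctrl, 1.72% of 3498 in O-Ctrl and 1.80% of 3332 in O-Ex. Their UMIs per spot ran from 3095 to 24073 in Y-Ctrl (median 14984), from 9690 to 26342 in O-Ctrl (median 17696.5) and from 9181 to 28240 in O-Ex (median 17882). They summed to 890349, 1110517 and 1083706 UMIs, out of 62348064, 58234443 and 53196124 in the whole sections. The Y-Ctrl spots were thus the shallowest, and 4 of them, against none in the other sections, had under 6000 UMIs. Mitochondrially encoded genes took 18.4%, 17.1% and 16.9% of the UMIs of the Lypd1-rich spots in Y-Ctrl, O-Ctrl and O-Ex, and 19.7%, 19.8% and 17.8% of those of the other spots. All 3 files list the same barcodes, so a shared barcode marks a place on the array and not a shared cell. Of the chosen spots, 5 barcodes were shared by Y-Ctrl and O-Ctrl, 14 by Y-Ctrl and O-Ex and 0 by O-Ctrl and O-Ex.

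The score had no gap at the limit of the choice. The last spot inside scored 4.893 and the first outside 4.890 in Y-Ctrl, 6.20 and 6.18 in O-Ctrl, and 5.48 and 5.42 in O-Ex. The median score inside was 5.91, 7.16 and 7.09, against 0.927, 0.983 and 1.03 in the other spots. The same rank therefore stood for a lower score in Y-Ctrl: of its 60 spots 25 reached 6.20, the lowest score inside in O-Ctrl, while 51 of the 60 O-Ex spots did. All 5 genes were detected in 33, 47 and 38 of the 60 spots.

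**Figure D1:**
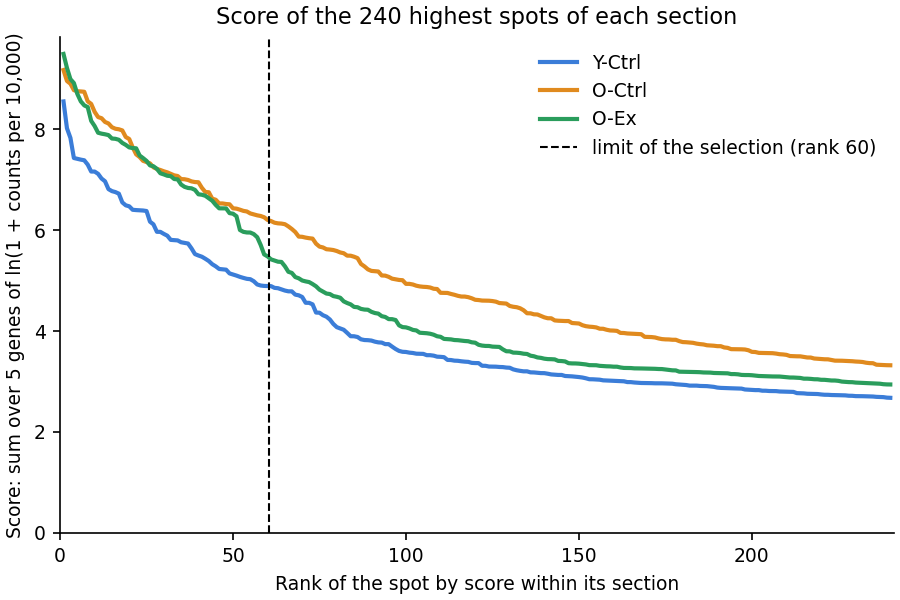
Score of each spot (vertical axis, sum over the 5 genes of ln(1 + counts per 10000)) against its rank within the section (horizontal axis), for the 240 highest spots of Y-Ctrl, O-Ctrl and O-Ex. The dashed line marks rank 60, where the scores were 4.893, 6.20 and 5.48 with no step, and the Y-Ctrl line runs lowest throughout.

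All levels below are counts summed over the 60 spots and given as counts per 1e6 UMIs (CPM), with the total taken without the 5 score genes. A fold or a log2 ratio compares CPM + 5. Intervals are exact 95% Poisson intervals, and they cover counting error only. Lypd1 itself stood at 810.0 CPM in Y-Ctrl (interval 752 to 871), 1034 in O-Ctrl (975 to 1096) and 1243 in O-Ex (1178 to 1311), and at 48.2, 53.8 and 48.3 CPM in the other spots. By spot it ran from 45.6 to 1955 CPM with a median of 734 in Y-Ctrl, from 227 to 2169.8 with a median of 967 in O-Ctrl, and from 305 to 2348 with a median of 1144 in O-Ex. Every chosen spot held Lypd1, and the 3 sections overlapped over most of their range. Down the ranks Lypd1 thinned out gradually. In Y-Ctrl it was 1152 CPM in ranks 1 to 20, 809.9 in 21 to 40, 417 in 41 to 60, 288 in 61 to 120 and 175 in 121 to 240, and in O-Ex the same bins held 1625, 1119, 943, 413 and 179.

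Of the other 4 score genes, Nr2f2 and Hpcal1 had the same order of the sections as Lypd1, and Grp and Lmo3 were highest in O-Ctrl. Grp, the peptide gene, stood at 179, 275 and 143 CPM in Y-Ctrl, O-Ctrl and O-Ex (other spots 17.3, 17.0 and 14.8) and was counted in 45, 53 and 40 of the 60 spots. Its lowest level was that of O-Ex, the section with the highest Lypd1. Within O-Ex Grp sat in the top of the ranking, at 267 CPM in ranks 1 to 20, 106 in 21 to 40 and 43.4 in 41 to 60, and ranks 61 to 120 held 38.6. Nr2f2 stood at 172, 178 and 212 CPM (other spots 24.5, 28.7 and 30.7) and Lmo3 at 261, 313 and 271 CPM (other spots 55.7, 63.4 and 62.5). The intervals of Lmo3 overlapped between the sections, at 229 to 297 CPM in Y-Ctrl, 281 to 348 in O-Ctrl, with 241 to 304 in O-Ex. Hpcal1 stood at 264, 438 and 472 CPM (other spots 39.6, 56.2 and 50.4), lowest in Y-Ctrl. All 5 were chosen for their height, and no test belongs to them.

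The region named in the label was carried by the marker genes only in part, and in O-Ex the amygdala list was high in about 10% of the spots. A list of 10 amygdala glutamatergic markers was above the section's 90th percentile, taken over all kept spots, in 23 of 60 Lypd1-rich spots of Y-Ctrl, in 23 of O-Ctrl and in 5 of O-Ex, where 10% of 60 spots would be 6. A list of 8 piriform and olfactory cortex markers was above it in 5, 12 and 1. The median O-Ex spot was still above the median of the other spots. It stood at 392 against 307 CPM for the amygdala list and 810 against 573 for the piriform list. Other region lists were above it too: layer 6 of the neocortex in 17, 26 and 25 spots, the hippocampal CA fields in 17, 13 and 23, claustrum and endopiriform nucleus in 9, 16 and 16, and striatum in 12, 15 and 12. Thalamus and myelin lists were above it in 0 spots of every section, and central amygdala in 3, 4 and 1. Part of the Lypd1-rich spots were thus high in the layer 6, CA field or striatum list. Few genes of these lists reached the minimum mean level set for ratios. They were 2 of 5 for layer 6 (Rprm and Crym), 2 of 6 for the CA fields (Wfs1 and Spink8) and 2 of 7 for striatum. The striatum list summed to 177, 168 and 210 CPM, against 162, 156 and 144 in the other spots.

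**Figure D2:**
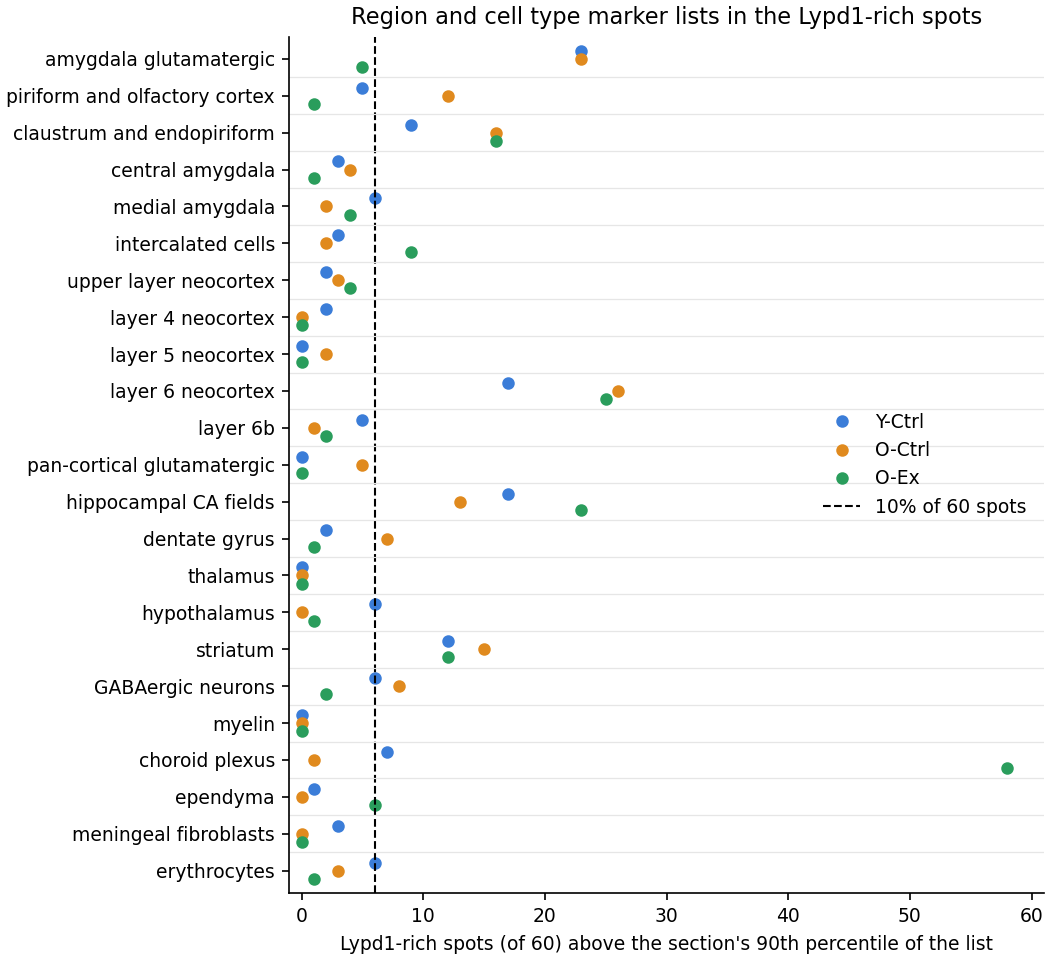
Number of the 60 Lypd1-rich spots of each section (horizontal axis) whose summed level of a marker list (vertical axis) exceeded the 90th percentile of all kept spots of that section. The dashed line marks 10% of 60 spots; the amygdala list reached 23 spots in Y-Ctrl and O-Ctrl and 5 in O-Ex, and the choroid plexus list 7, 1 and 58.

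Part of the chosen spots were high in more than 1 region list. Over 6 region lists (amygdala, piriform, claustrum, layer 6, CA fields and striatum), 13, 10 and 11 spots were high in none, 23, 15 and 22 in 1, and 24, 35 and 27 in 2 or more. The same shares over all kept spots are not given here, so these counts describe the chosen spots only. Of the 23 amygdala-high spots of Y-Ctrl 6 were also layer 6-high, which is 35.3% of the layer 6-high spots there. In O-Ctrl the overlap was 7 of 23 (26.9% of the layer 6-high spots) and in O-Ex 4 of 5 (16% of them). A spot can span a boundary between regions, and the positions of the spots were not used here.

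Among the amygdala markers, Cyp26b1 and Myl4 were above the other spots in every section, with the smallest margin in O-Ex. Cyp26b1 encodes an enzyme that breaks down retinoic acid, and stood at 92.3 CPM in Y-Ctrl, 56.9 in O-Ctrl, but 16.6 in O-Ex, against 3.23, 5.48 and 3.09 in the other spots. It was counted in 30, 37 and 13 of the 60 spots. Myl4, a myosin light chain, stood at 149, 214 and 42.5 CPM (other spots 31.5, 27.0 and 24.3) and was counted in 34, 43 and 18 spots. Etv1, an ETS transcription factor, was at 188, 166 and 84.2 CPM, so that O-Ex was at the level of its other spots (82.1, 90.4 and 91.2). Rspo2, a secreted activator of Wnt signalling, was low and in the same order, at 29.3, 14.4 and 10.2 CPM against 4.35, 5.37 and 5.32.

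Other amygdala markers had the opposite order or were not raised at all. Cdh13, an atypical cadherin, was at 42.8, 48.7 and 117 CPM against 34.3, 36.2 and 39.1 in the other spots, and Otof, the synaptic vesicle protein otoferlin, at 6.75, 16.2 and 35.1 against 3.14, 3.81 and 3.17. Both were highest in O-Ex. Sema5a, a guidance cue, was at 6.75, 9.93 and 41.6 CPM, under the other spots (25.8, 23.4 and 27.7) in both control sections. Slc17a6, the vesicular glutamate transporter of subcortical neurons, was lower than in the other spots in every section (42.8, 16.2 and 26.8 against 123, 86.7 and 87.0 CPM). Neurod6 was at 73.1, 65.9 and 46.2 CPM against 71.5, 65.2 and 80.7, and Adamts2 was counted 11, 4 and 4 times in all. Of the 10 markers, Rspo2, Etv1, Cyp26b1, Myl4 and Neurod6 were thus lowest in O-Ex and Cdh13, Otof and Sema5a highest there.

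The piriform list rested mostly on 1 abundant gene. Slc17a7, the vesicular glutamate transporter of cortical neurons, stood at 609.8, 764 and 531 CPM against 405, 429 and 461 in the other spots. Reln, the secreted glycoprotein of the outer layer and of piriform semilunar cells, was below the other spots in every section, at 10.1, 22.6 and 1.85 CPM against 24.7, 26.2 and 28.3, with 2 counts in the 60 O-Ex spots. Cux1, a homeobox gene of upper cortical layers, was at 20.3, 19.9 and 21.3 CPM against 42.7, 47.2 and 43.7, and Tbr1, a T-box factor of deep glutamatergic neurons, at 60.8, 46.9 and 57.3 against 68.5, 64.4 and 70.0. The deep-layer regulators Fezf2 (41.6, 39.7 and 36.1 CPM against 21.9, 20.8 and 23.4) and Bcl11b (46.1, 49.6 and 89.7 against 27.2, 28.5 and 37.3) were higher than in the other spots in all 3 sections. Nrp2, a semaphorin receptor, was at 12.4, 17.1 and 22.2 against 9.39, 10.3 and 11.4 CPM, and Ntng1, a netrin-related membrane protein, at 33.8, 38.8 and 41.6 against 77.3, 42.5 and 45.3.

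O-Ex differed from both control sections in 1 list of another tissue. The 5 choroid plexus genes Ttr, Enpp2, Folr1, Kl and Clic6 summed to 608 CPM in the Lypd1-rich spots of Y-Ctrl, 557 in O-Ctrl, but 18586 in O-Ex. In the other spots they summed to 4667, 5629 and 13891 CPM, so O-Ex was highest there too. The median of those other spots was 355, 319 and 693 CPM, against 401, 358 and 15634 in the Lypd1-rich spots. By spot the sum ran from 0 to 2582 CPM in Y-Ctrl, from 44.4 to 2493 in O-Ctrl and from 2899 to 62108 in O-Ex, so that no O-Ex spot overlapped either control section. The list was above the section's 90th percentile in 7, 1 and 58 of 60 spots. All 5 genes were counted in the O-Ex and the O-Ctrl spots, and Kl and Clic6 were at 0 in the Y-Ctrl spots. The ependyma list was above it in 1, 0 and 6 spots, meningeal fibroblasts in 3, 0 and 0, and erythrocytes in 6, 3 and 1. The part of these cells in the differences of O-Ex was not tested, and in spots fewer cells of a type and less RNA per cell cannot be told apart.

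Beyond the score genes, some genes stood above the other spots in all 3 sections. Of 3136 genes whose mean reached 50 CPM over the spots of the 3 sections, 29 (0.925%) were at least 2-fold higher than in the other spots in every section. Another 69 (2.2% of the genes that reached that mean in the other spots, also 3136) were at least 2-fold lower in every section. The spots were chosen on RNA counts of these same libraries, so both counts describe the choice and no test belongs to them.

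The 15 genes with the highest shared ratios have various known roles. C1ql3, a C1q-like protein released at synapses, stood at 86.6, 65.9 and 65.7 CPM in Y-Ctrl, O-Ctrl and O-Ex, against 10.8, 10.5 and 12.1 in the other spots. Nptxr, the neuronal pentraxin receptor, which gathers AMPA receptors, was at 611, 657 and 789 CPM against 203, 208 and 234. Nov, a matricellular protein of the CCN family, was at 241, 277 and 312 CPM against 73.1, 75.4 and 87.6. All 3 stood above the other spots in each section, and by spot Nptxr ran from 0 to 1082, 229.6 to 1416 and 168 to 1926 CPM. Acvr2a, an activin receptor, stood at 59.6, 60.5 and 51.8 CPM against 20.6, 18.3 and 19.7.

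Vesicle and signalling proteins were among the 15 as well. Slc30a3, the zinc transporter of synaptic vesicles, was at 145, 172 and 219 CPM against 47.3, 51.7 and 57.5 in the other spots, and Syn2, synapsin II, at 914, 872 and 699 against 305, 289 and 294. Slc30a3 was highest and Syn2 lowest in O-Ex. Cpne6, a calcium-dependent phospholipid-binding protein, was at 197, 253 and 262 CPM against 74.4, 79.7 and 95.6, Ak5, a brain adenylate kinase, at 203, 220.2 and 254 against 80.1, 88.0 and 92.5, and Rasal1, a Ras GTPase-activating protein, at 88.9, 86.6 and 88.8 against 27.7, 30.8 and 31.5. Kcng1, a silent potassium channel subunit, was at 46.1, 86.6 and 65.7 CPM against 6.87, 10.1 and 12.1, and Kctd4, of the BTB-domain KCTD family, at 100.1, 93.9 and 186 against 29.1, 28.2 and 31.5.

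Others of the 15 are transcription factors, their partners or cell type markers. Rprm, reprimo, a marker of layer 6 corticothalamic neurons, stood at 185, 239 and 239.6 CPM against 49.5, 56.5 and 59.9 in the other spots. Its spots were very uneven, from 0 to 932 CPM with a median of 117 in Y-Ctrl and from 0 to 1452 with a median of 129.5 in O-Ctrl. Bhlhe22, a helix-loop-helix transcription factor, was at 101, 95.7 and 151 CPM against 36.7, 30.3 and 38.1, and Ldb2, the LIM-domain binding partner of LIM cofactors, at 83.3, 93.0 and 117 against 32.9, 30.7 and 32.4. Cyp26b1, given above, had the steepest ratio of the 15 in Y-Ctrl (log2 3.56) and among the smallest in O-Ex (log2 1.42).

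The genes with the lowest shared ratios included known markers of thalamus and of myelin. Tcf7l2, a transcription factor of thalamic neurons, stood at 6.75, 5.41 and 6.47 CPM against 118, 76.2 and 83.3 in the other spots, and Prkcd, a protein kinase C of thalamus and central amygdala, at 20.3, 4.51 and 11.1 against 191, 117 and 111. The myelin genes Mbp (663, 541 and 652 CPM against 2579.9, 2952 and 2619) and Mog (25.9, 22.6 and 23.1 against 138, 131 and 106) were both far below the other spots. Ptgds, the prostaglandin D synthase of meninges and oligodendrocytes, was at 268, 191 and 389 CPM against 1283, 1806 and 1952. Aldh1a1, a retinaldehyde dehydrogenase, and Sept4, a septin, were likewise low, at 10.1, 8.12 and 6.47 and at 42.8, 40.6 and 37.9 CPM.

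**Figure D3:**
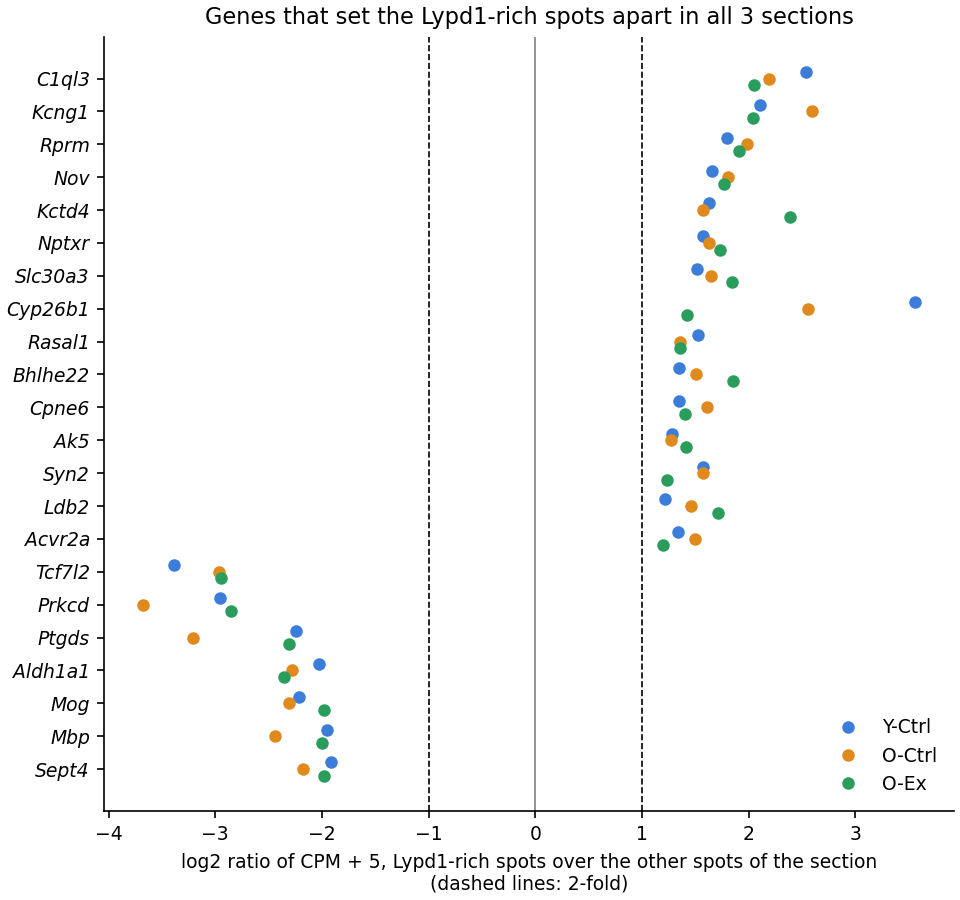
Log2 ratio of CPM + 5 in the Lypd1-rich spots over the other spots of the same section (horizontal axis) for the 15 genes with the highest and 7 of the 8 with the lowest shared ratios (vertical axis), 1 point for each section. All points of the first 15 lie beyond the 2-fold line on the right and all points of the last 7 beyond it on the left; Cyp26b1 has the widest spread, from 3.56 in Y-Ctrl to 1.42 in O-Ex.

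The lynx and nicotinic genes around Lypd1 summed to more than in the other spots, while few of them were abundant. Their sum was 1324, 1529 and 1305 CPM against 963, 1011 and 990. It was above the section's 90th percentile in 21, 24 and 11 of the 60 spots. Of 17 lynx and nicotinic genes 4 passed the minimum of 50 CPM. Ly6h, a relative of Lypd1 that also restrains nicotinic receptors, stood at 704, 938 and 813 CPM against 405, 443 and 409 in the other spots, and was the most abundant of the list. Tmem35a, the chaperone NACHO that assembles nicotinic receptors, was at 87.8, 102 and 116 CPM against 39.9, 43.4 and 42.7, and Chrm1, the muscarinic M1 receptor, at 73.1, 104 and 80.5 against 49.7, 51.6 and 57.9. Ly6e stood at 289, 251 and 174 CPM and Lynx1 at 52.9, 25.3 and 36.1, the latter under the other spots (81.6, 80.7 and 79.7). The nicotinic subunits themselves were near the detection limit, and their levels in the other spots are not given here. Chrna7 had 1, 1 and 0 counts, Chrna4 6, 5 and 2 and Chrnb2 5, 13 and 12 over the 60 spots of each section.

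Partners of the other score genes ranged from undetected to abundant. The receptors for gastrin-releasing peptide and its relatives, Grpr, Nmbr and Brs3, had 0 counts in all 180 spots, and Nmb, the related peptide neuromedin B, had 3, 4 and 8. At the depth of these spots a count of 0 still allows up to 4.15, 3.33 and 3.41 CPM by the Poisson interval. Of 9 partners of COUP-TF and LIM cofactors 3 passed the minimum: Nr2f1, the COUP-TFI gene, at 83.3, 116 and 109 CPM, Lmo4 at 280.1, 286 and 202, and Ldb2. Of 10 neuronal calcium sensors 8 passed it. Hpcal4 was at 514, 391 and 468 CPM against 214, 199.6 and 187 in the other spots, while Hpca, hippocalcin, was under them in every section (401, 346 and 224 against 452, 442 and 482). Vsnl1, the visinin-like protein gene, was at 992, 1169 and 882 CPM against 886, 844 and 843.

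Between the 2 control sections, labelled Y and O, the Lypd1-rich spots differed past 1.5-fold in a small share of genes. The noncoding RNA Bc1 was 1.97-fold lower in O-Ctrl, haemoglobin transcripts and Npy were lower, and the neuropeptide Vip, Lamp5, Hap1 and the GABA-A receptor subunit gene Gabra5 were higher. Of 3136 genes 64 (2.04%) were at least 1.5-fold higher in O-Ctrl than in Y-Ctrl and 36 (1.15%) at least 1.5-fold lower. The higher share of these 100 genes was 64.0%, and 49.5% (49 higher, 50 lower) under median of ratios scaling. The median log2 ratio of all tested genes was 0.06. In the other spots of the same sections, 8 of the 3136 genes were past 1.5-fold higher and 1 lower, and 2 of the 64 and 0 of the 36 genes were past it there too. The other spots are far more numerous, so their counting error is smaller. The Poisson intervals of the sections lay apart for 39 of the 64 and 26 of the 36 genes. The same counts picked these genes, so that share is no separate support, and it was not taken over all 3136 genes. With 30 spots per section 182 genes were past 1.5-fold higher and 104 lower, with 120 spots 24 and 32. Of the 64 and 36 genes, 10 and 12 stayed past it with 120 spots, and 63 and 35 kept their sign. The 120 spots include the 60 that picked these genes, so a kept sign is no separate support.

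Vip and Lamp5 had the highest ratios of O-Ctrl over Y-Ctrl. Vip, vasoactive intestinal peptide of a class of interneurons, stood at 23.6 CPM in Y-Ctrl and 108 in O-Ctrl, and at 39.8 in O-Ex. A single spot held 60% of its O-Ctrl counts, and without each section's highest spot the log2 ratio was 1.30 in place of 1.98. Lamp5, a membrane protein of forebrain neurons, stood at 36.0, 93.0 and 26.8 CPM in Y-Ctrl, O-Ctrl and O-Ex, and its O-Ctrl counts were spread over 40 of 60 spots. Its log2 ratio of O-Ctrl over Y-Ctrl was 1.26 in the Lypd1-rich spots and -0.14 in the other spots. Gabra5, whose subunit makes extrasynaptic GABA-A receptors, stood at 39.4 CPM in Y-Ctrl and 81.2 in O-Ctrl (log2 0.96, other spots -0.10). Penk, the enkephalin precursor, stood at 91.1 and 165 CPM (log2 0.82). That ratio was 0.53, within 1.5-fold, without each section's highest spot and -0.0012 when Grp was left out of the score.

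The rest of the 10 highest had smaller ratios. Hap1, huntingtin-associated protein 1, a trafficking protein of the limbic forebrain, stood at 65.3 CPM in Y-Ctrl (interval 49.5 to 84.4), 135 in O-Ctrl (115 to 159) and 192 in O-Ex (167 to 220.4). Its intervals did not overlap between any of the sections, and the ratio in the other spots was smaller (log2 0.42 against 1.00). Kcng1 stood at 46.1 and 86.6 CPM (log2 0.84), Arl6ip5, an endoplasmic reticulum membrane protein, at 48.4 and 97.5 (log2 0.94), and Erg28, of sterol synthesis, at 37.1 and 74.0 (log2 0.91). The orphan receptor gene Gpr162 (log2 1.09) and AC149090.1 (log2 1.21) were also higher in the other spots, by 0.80 and 1.18. AC149090.1 lies on an unplaced scaffold, where its reads may be shared with other copies.

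Bc1, a short RNA carried into dendrites, where it represses translation, was the most abundant of the 100 genes past 1.5-fold. It stood at 18899.7 CPM in Y-Ctrl, 9601 in O-Ctrl, with 13383 in O-Ex. By spot it ran from 5608 to 38796 CPM with a median of 19901 in Y-Ctrl, from 4631 to 18569.7 with a median of 9513 in O-Ctrl, and from 4817 to 21474 with a median of 12884 in O-Ex. The spots of the sections overlapped, and the upper quartile of O-Ctrl (11397) lay below the lower quartile of Y-Ctrl (15726). The log2 ratio of O-Ctrl over Y-Ctrl was -0.98 in the Lypd1-rich spots and -0.49 in the other spots, where Bc1 stood at 10493, 7487 and 8317 CPM. The gene (ENSMUSG00000115783, chromosome 7, 144914470 to 144914637, plus strand, mm10) is related to a large family of genomic repeats, so its count is uncertain.

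Haemoglobin transcripts, which mark red blood cells, were the lowest in O-Ctrl relative to Y-Ctrl, and a single Y-Ctrl spot held much of the Hba-a2 and of the Hbb-bs counts. All 4 tested erythrocyte genes were past 1.5-fold lower, with a median log2 of -2.09 against -0.05 in the other spots. Hba-a2 stood at 385 CPM in Y-Ctrl and 55.1 in O-Ctrl (log2 -2.70), and Hbb-bs at 656 and 181 (log2 -1.83). In Y-Ctrl 46.2% of the Hba-a2 counts and 41.7% of the Hbb-bs counts came from a single spot, and the median spot held 0 and 63.6 CPM. Without each section's highest spot the log2 ratios were -2.38 and -1.59. The paired genes Hba-a1 and Hba-a2, and Hbb-bs and Hbb-bt, are near-identical copies, so the split between copies is uncertain.

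Npy, neuropeptide Y of interneurons, stood at 228 CPM in Y-Ctrl and 92.1 in O-Ctrl. A single spot held 26.6% of its Y-Ctrl counts. The log2 ratio was -1.27, and -1.04 without each section's highest spot. Ncan, the extracellular matrix proteoglycan neurocan, stood at 82.1 and 37.9 CPM (log2 -1.02, other spots -0.26). Epas1, the hypoxia-inducible factor of endothelium and astrocytes, and S1pr1, a sphingosine phosphate receptor of the same cells, had log2 ratios of -0.89 and -0.85, and the RNA helicase gene Dhx30 -0.83.

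Astrocyte and myelin genes had mostly negative ratios in O-Ctrl, nearly all within 1.5-fold. Of 7 astrocyte genes tested 6 had a negative log2 ratio and 1, the gap junction gene Gja1, was past 1.5-fold (77.6 CPM in Y-Ctrl and 49.6 in O-Ctrl). The list median was -0.29 against 0.06 for all tested genes, and 0.07 in the other spots. All 5 myelin genes had negative ratios with 0 past 1.5-fold (median -0.29, other spots 0.18), and Mbp, the myelin basic protein gene, stood at 663 and 541 CPM. The highest Y-Ctrl spot held 19866 CPM of the myelin list, against a median spot of 1097. In O-Ctrl the highest spot held 3489 CPM and the median spot 939. The summed Y-Ctrl levels of these genes thus include 1 myelin-rich spot. Of the 12 mitochondrially encoded genes 12 were negative and 0 past 1.5-fold (median -0.14).

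Neuronal receptor lists had mostly positive ratios in O-Ctrl, nearly all within 1.5-fold. Glutamate receptor genes were above 0 in 7 of 8 cases (6 of 8 under median of ratios scaling) with a median of 0.20 (other spots -0.06), and 0 were past 1.5-fold. Gria2, an AMPA receptor subunit gene, stood at 295 CPM in Y-Ctrl and 356 in O-Ctrl. The 4 pan-cortical glutamatergic genes tested were all above 0 (median 0.28), with Nrgn, the calmodulin-binding protein neurogranin, at 1565 and 1959 CPM and Camk2a at 198 and 285. Of 8 GABA-A receptor genes Gabra5 alone was past 1.5-fold, with a list median of 0.16. The 4 lynx and nicotinic genes (median 0.31), the 3 COUP-TF and LIM partners (0.15) and the 8 calcium sensors (0.02, and -0.02 under median of ratios scaling) had 0 genes past 1.5-fold in either direction.

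Complement and microglial genes were higher in O-Ctrl in the other spots, and their ratios in the Lypd1-rich spots were smaller. C1qb, a subunit of the first complement component, stood at 75.4 CPM in Y-Ctrl and 68.6 in O-Ctrl (log2 -0.13), and at 73.3 and 116 in the other spots (log2 0.63). C1qa stood at 61.9 and 87.5 CPM (log2 0.47, other spots 0.77), and Tyrobp, a microglial signalling adaptor, at 60.8 and 57.8 (log2 -0.07, other spots 0.68). The intervals of all 3 overlapped between the sections in the Lypd1-rich spots. The median of the 3 complement genes was -0.07 (other spots 0.63) and that of the 3 microglial genes -0.06 (0.42). The difference between the chosen and the other spots was not tested.

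Of 7 amygdala peptide and receptor genes tested, 2 were past 1.5-fold higher in O-Ctrl, Vip and Penk, and 2 lower, Npy and Sst. Sst, the somatostatin precursor of interneurons, stood at 512 CPM in Y-Ctrl and 339 in O-Ctrl (log2 -0.59), and its ratio was -0.37, within 1.5-fold, without each section's highest spot and 0.086 over the amygdala-high spots alone. Malat1, an abundant nuclear noncoding RNA, was higher in O-Ctrl at 78.8 and 127 CPM. Cyp26b1, described with the amygdala markers, was past 1.5-fold lower (log2 -0.65), and its ratio was 0.0011 with 120 spots per section.

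**Figure D4:**
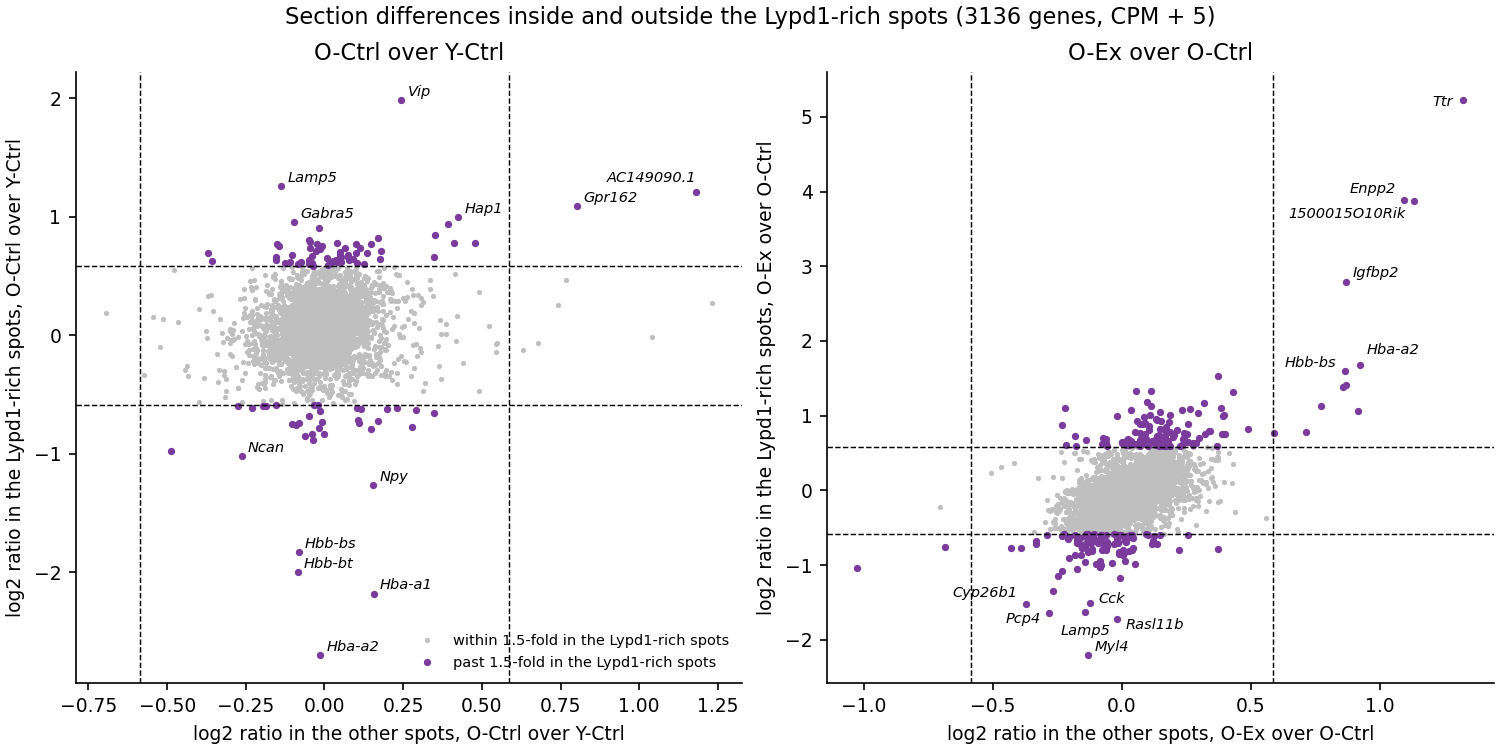
Log2 ratio of CPM + 5 between sections in the Lypd1-rich spots (vertical axis) against the same ratio in the other spots (horizontal axis), 1 point for each of 3136 genes, for O-Ctrl over Y-Ctrl and O-Ex over O-Ctrl; dashed lines mark 1.5-fold and the 6 highest and 6 lowest genes are named. Few purple points, those past 1.5-fold in the Lypd1-rich spots, lie beyond the vertical lines: 2 of the 64 higher and 0 of the 36 lower in O-Ctrl, and 12 of the 125 higher and 2 of the 116 lower in O-Ex.

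O-Ex and O-Ctrl, the exercise and control sections of the older label, differed past 1.5-fold in more genes of the Lypd1-rich spots. Choroid plexus transcripts were far higher in O-Ex, haemoglobin transcripts, 3 of 11 lysosomal genes and 2 of 10 chaperone genes were higher, and Cck was lower. Of 5 amygdala markers tested 3 were lower and 1 was higher. Of 3136 genes 125 (3.99%) passed 1.5-fold as higher in O-Ex than O-Ctrl, while 116 (3.7%) passed it as lower. The higher share was 51.9%, and 34.1% (91 higher, 176 lower) under median of ratios scaling. The median log2 ratio of all tested genes was -0.04. In the other spots 12 genes were past 1.5-fold higher, all 12 of them among the 125, and 3 lower, of which 2 were among the 116. The intervals of the sections lay apart for 109 of the 125 and 105 of the 116 genes. These genes too were picked by the same counts, and the share over all tested genes was not taken. O-Ctrl is the same section in both comparisons, and each comparison's values are given on their own.

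Choroid plexus genes led those higher in O-Ex. Ttr, which encodes transthyretin, the thyroid hormone carrier of cerebrospinal fluid, stood at 498 CPM in Y-Ctrl, 441 in O-Ctrl, but 16685 in O-Ex. By spot it ran from 0 to 2474 CPM in Y-Ctrl, from 0 to 2493 in O-Ctrl and from 2515 to 55345 in O-Ex, with medians of 329.8, 291 and 13908. No O-Ex spot overlapped the spots of the other sections, and the closest pair lay 2493 against 2515 CPM. The ratio was 37.4-fold (log2 5.22) in the Lypd1-rich spots and 1.32 on the log2 scale in the other spots, where Ttr stood at 4953 and 12409 CPM. Ttr did not follow the score within O-Ex, at 14772, 18545 and 16939 CPM in the 3 bins of 20 ranks, 17748 in ranks 61 to 120 and 7475 in ranks 121 to 240.

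The other choroid plexus genes had the same order. Enpp2, autotaxin, which makes lysophosphatidic acid, stood at 104 CPM in O-Ctrl and 1608 in O-Ex, and its spots ran from 0 to 416 and from 298 to 5646, with overlap. 1500015O10Rik, which encodes the secreted peptide augurin, had 6 counts in O-Ctrl and 159 in O-Ex (147 CPM), and Igfbp2, a carrier of insulin-like growth factors, stood at 19.9 and 167 CPM. These 2 genes reached the minimum mean only through O-Ex. Below the minimum of 50 CPM, Clic6 had 0, 2 and 116 counts in Y-Ctrl, O-Ctrl and O-Ex, Folr1 2, 4 and 99 and Kl 0, 7 and 102. Fxyd1, a regulator of the sodium pump, stood at 44.2 and 138 CPM (log2 1.54) and Hopx, a homeodomain protein of astrocytes and other cells, at 30.7 and 85.1 (log2 1.34). Ttr, Enpp2, 1500015O10Rik and Igfbp2 were higher in the other spots too, by 1.32, 1.09, 1.13 and 0.87 on the log2 scale.

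Haemoglobin transcripts were higher in O-Ex in 4 of 4 tested genes. Hbb-bs stood at 181 CPM in O-Ctrl and 558 in O-Ex (log2 1.59), and Hba-a2 at 55.1 and 188 (log2 1.68). A single O-Ex spot held 56.4% and 56.2% of those counts, and without each section's highest spot the log2 ratios were 0.95 and 1.10. In the other spots the list median was 0.87 against 1.51 here. Over the amygdala-high spots alone (23 spots of O-Ctrl, 5 spots of O-Ex) the ratios were -0.75 and -1.58, a comparison chosen after seeing the data. Hbb-bs stood there at 180 CPM in O-Ctrl and 105 in O-Ex, and Hba-a2 at 88.7 and 26.3. The O-Ex levels rest on few counts.

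Cck, the precursor of cholecystokinin, made by principal neurons and a class of interneurons, was the most abundant gene among the 10 lowest in O-Ex. It stood at 1829 CPM in Y-Ctrl (interval 1741 to 1920.5), 2024 in O-Ctrl (1941 to 2109.8) and 712 in O-Ex (663 to 764). By spot it ran from 0 to 3389 CPM with a median of 1655 in Y-Ctrl, from 341 to 4631 with a median of 1973 in O-Ctrl, and from 169 to 1200.3 with a median of 699.7 in O-Ex. The O-Ex range lay inside that of Y-Ctrl and overlapped the low part of that of O-Ctrl. The upper quartile of O-Ex (876) lay below the lower quartile of O-Ctrl (1262). The ratio was 2.83-fold lower in O-Ex (log2 -1.50), against -0.12 in the other spots. Relative to those spots, Cck was higher in the Lypd1-rich spots of Y-Ctrl and O-Ctrl (log2 0.53 and 0.93) and lower in those of O-Ex (-0.45). Cck lies on chromosome 9 (121489824 to 121495694, minus strand, mm10).

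The amygdala markers Myl4 and Cyp26b1 and several forebrain neuron genes were among the 10 lowest in O-Ex. Myl4 stood at 214 CPM in O-Ctrl and 42.5 in O-Ex, and by spot at 0 to 974 (median 84.3) and 0 to 642 (median 0). Cyp26b1 stood at 56.9 and 16.6 CPM (log2 -1.51), and its level in O-Ex rests on 18 counts. In both genes the spots of the sections overlapped, and most O-Ex spots held no count. Rasl11b, a small GTPase, stood at 103 and 27.7 CPM (log2 -1.72, other spots -0.02), Pcp4, a calmodulin-binding peptide, at 705 and 224 (log2 -1.63, -0.28), and Lamp5 at 93.0 and 26.8 (log2 -1.62, -0.14). Mgst3, a microsomal glutathione transferase, stood at 468 and 219 CPM (log2 -1.08), Fhl2, a LIM-domain protein, at 62.3 and 25 CPM, and the histone gene Hist3h2ba at 83.9 and 35.1. Vip stood at 108 and 39.8 CPM, and its log2 ratio of -1.34 was -0.48 without each section's highest spot. Lamp5 and Vip reached the minimum mean only through O-Ctrl, where they were high.

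Of the 5 amygdala markers tested 3 were past 1.5-fold lower and 1 past it higher in O-Ex. The lower were Myl4, Cyp26b1 and Etv1 (log2 -0.94), the higher was Cdh13 (log2 1.19, 48.7 and 117 CPM), and Neurod6 was between (-0.47). In the other spots the 5 had a median log2 of 0.01. The number of amygdala-high spots also differed, 23 in O-Ctrl and 5 in O-Ex, so a difference between the sections in the kind of spots chosen and a difference within 1 kind of spot cannot be told apart. Of the 3 piriform markers tested Bcl11b was past 1.5-fold higher (log2 0.79). The 2 CA field genes tested were both past it higher, Wfs1, a marker of CA1 neurons, at 111 and 172 CPM and Spink8 at 60.5 and 105, and with median of ratios scaling 1 of them was. Over the amygdala-high spots alone Spink8 stood at 35.0 CPM in O-Ctrl and had 0 counts in the 5 spots of O-Ex. Its ratio there, -3.0, is therefore set by the pseudocount.

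**Figure D5:**
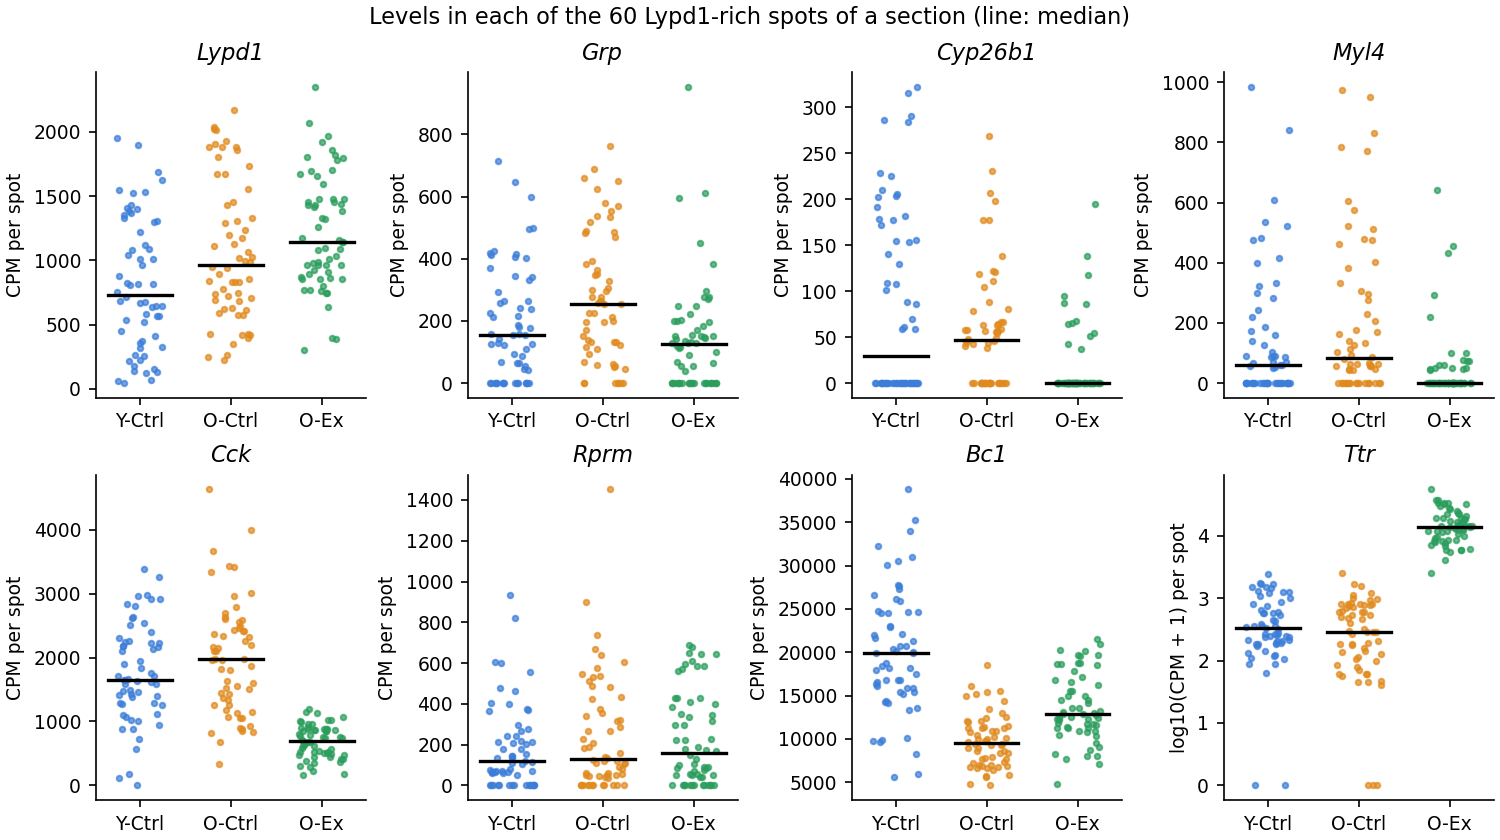
CPM in each of the 60 Lypd1-rich spots of Y-Ctrl, O-Ctrl and O-Ex (horizontal axis) for 8 genes, with the median as a line; Ttr is drawn as log10(CPM + 1) and the others on linear axes (vertical axes). The Ttr points of O-Ex lie above all others, its Cck points lie low with a median of 699.7 against 1973 in O-Ctrl, and most of its Cyp26b1 and Myl4 points are at 0.

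Some calcium sensors of the family of Hpcal1 were lower in O-Ex. Of 8 tested 3 were past 1.5-fold lower and 0 higher: Hpca at 346 CPM in O-Ctrl and 224 in O-Ex, Ncald, neurocalcin delta, at 469 and 291, and Kcnip3, a potassium channel interacting protein, at 68.6 and 43.5. The list median was -0.32 against -0.04 for all tested genes and 0.00 in the other spots. Hpcal4 had a positive ratio (log2 0.26). The 4 lynx and nicotinic genes had a median of -0.28 and the 3 COUP-TF and LIM partners -0.09, with 0 past 1.5-fold, and with 1 lynx and nicotinic gene past it lower under median of ratios scaling.

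Other neuronal lists differed gene by gene. Of 15 presynaptic genes 2 were past 1.5-fold lower, the syntaxin gene Stx1a (166 CPM in O-Ctrl and 105 in O-Ex) and Syt4, a synaptotagmin of dense-core vesicles (297 and 194, within 1.5-fold without each section's highest spot), and 1, the complexin gene Cplx2 (78.5 and 129), was past it higher. Over the amygdala-high spots alone the Cplx2 ratio was -0.029. The list median was -0.26 (other spots 0.09). Of 8 GABA-A receptor genes Gabra2 was past 1.5-fold higher (53.2 and 86.9 CPM) and Gabra5 past it lower (81.2 and 51.8). Without each section's highest spot the Gabra5 ratio was -0.57, within 1.5-fold. Glutamate receptor genes, immediate early genes and the 4 pan-cortical genes had 0 past 1.5-fold, with medians of 0.07, -0.03 and -0.32. Of 9 postsynaptic genes Nptx1, neuronal pentraxin 1, was past it higher (109 and 167 CPM), and 0 were under median of ratios scaling.

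Lysosomal genes had positive ratios in O-Ex, most of them within 1.5-fold. All 11 tested had a positive log2 ratio (10 of 11 under median of ratios scaling), 3 were past 1.5-fold, and the median was 0.38 (other spots 0.16). Ctsd, the protease cathepsin D, stood at 252 CPM in O-Ctrl (interval 223 to 283) and 511 in O-Ex (469.7 to 556), with 263 in Y-Ctrl, and Lamp2, a lysosomal membrane protein, at 35.2 and 80.5. Chaperone genes of the endoplasmic reticulum were past it in 2 cases, Calr, calreticulin, at 232 and 413 CPM and Hspa5, BiP, at 189.5 and 326, with log2 ratios of 0.82 and 0.77 here and 0.49 and 0.59 in the other spots. The noncoding RNAs Meg3 (log2 0.78, other spots 0.71) and Snhg11 (1.13, 0.77) were higher in both kinds of spot.

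Microglial and complement genes also had positive ratios in O-Ex, with 3 of 3 above 0 and 0 past 1.5-fold in either list. Their medians were 0.41 and 0.47 (other spots -0.02 and 0.09), with Tyrobp at 57.8 CPM in O-Ctrl and 78.6 in O-Ex. Their part in the lysosomal ratios was not tested. Myelin genes were all above 0 in O-Ex, with 2 of 5 past 1.5-fold (1 under median of ratios scaling) and a median of 0.50 (other spots -0.18). Mobp, a myelin protein gene, stood at 125 CPM in O-Ctrl and 191 in O-Ex, far under the other spots of its sections (767 and 678). S100b, a calcium-binding protein of astrocytes, was the 1 astrocyte gene of 7 past 1.5-fold, lower at 182 and 91.6 CPM, while the list median was 0.27. Ptgds was higher at 191 and 389 CPM. Of 18 nuclear respiratory chain genes 13 were below 0 and 0 past 1.5-fold (median -0.26, other spots -0.06), with Cox6c, a cytochrome oxidase subunit gene, at 2262 and 1713 CPM. The 20 ribosomal protein genes had a median of -0.07 and the 12 mitochondrially encoded genes -0.02, with 0 past 1.5-fold.

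Within a section, the amygdala-high spots can be set beside the rest of the Lypd1-rich spots. Grp and Lypd1 are score genes, so that a spot low in 1 of them needed more of the others to be chosen, and their values are given as a description. Grp stood at 252 CPM in the 23 amygdala-high spots of Y-Ctrl and 125 in the other 37, at 313 and 252 in O-Ctrl, and at 328 and 129 in the 5 and 55 spots of O-Ex. Lypd1 stood at 669 and 914 CPM in Y-Ctrl, 997 and 1058 in O-Ctrl, and 1536 and 1221 in O-Ex. Cck differed less between the kinds of spot, at 1937 and 1749.8 CPM in Y-Ctrl, 2068 and 1997 in O-Ctrl, and 551 and 724 in O-Ex, and in O-Ex both kinds were below those of the control sections. Ttr stood at 15149.9 CPM in the 5 amygdala-high spots of O-Ex and 16801 in the other 55. The spots of a section come from 1 library, and these differences describe that section.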

How the data were processed

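The deposited counts were whole UMI counts per gene and barcode, made by the authors with Space Ranger (version 2.0.0, per the file headers) on mm10 per the submitters' processing notes. Spots with at least 3000 UMIs were kept, the 60 highest by the 5-gene score were taken in each section, and their counts were summed. Levels are CPM (counts per 1e6 UMIs) without the 5 score genes. Log2 ratios use a pseudocount of 5 CPM and cover genes whose mean reached 50 CPM. The mean is over the 3 sections, so a gene could reach it through the section where it is high. A large ratio can then be part of how the gene came to be included. With 1 section per group a size of 1.5-fold, or of 2-fold against the other spots, stands in for a test. The members and the 48 gene lists (465 symbols, 1 unmatched) were chosen with earlier results of these data known. Named genes were the 10 highest and 10 lowest of each comparison, the 15 highest and 8 lowest shared genes, the 5 score genes, the amygdala, piriform and score-gene pathway lists, and the most abundant and most different genes of the other lists, with Xist, Tsix and Y-linked genes left out. A gene of the shared lower set is not reported here. Folr1, Kl and Clic6 are outside this rule where named and were chosen after their values were seen. The results were recomputed under 17 other settings and under 3 more chosen after seeing the data. Doublets were not called, because spots hold more than 1 cell, and spot positions were not used here. The code was tested on simulated data. Python 3.11.15, numpy 2.4.6, pandas 2.3.3, scipy 1.17.1 and matplotlib 3.10.9 were used.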

Additional observations from a re-analysis of the deposited data

How the results depend on the processing

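Each group has 1 section, so section, array and condition cannot be told apart. No paired analysis was possible because each group has 1 section. Counts of genes past 1.5-fold depended on the number of spots and on the minimum level. For genes higher in O-Ctrl than in Y-Ctrl (64) the counts were 182 with 30 spots per section, 24 with 120 spots, 281 with a minimum mean of 20 CPM, 15 with 100 CPM, 1026 with no minimum and 4 with 2-fold. For genes lower in O-Ctrl (36) they were 104 with 30 spots, 174 with 20 CPM, 11 with 100 CPM, 801 with no minimum, 56 with totals without mitochondrially encoded genes and 6 with 2-fold. For genes higher in O-Ex than in O-Ctrl (125) they were 503 with 20 CPM, 46 with 100 CPM, 1738 with no minimum and 27 with 2-fold. For genes lower in O-Ex (116) they were 64 with 120 spots, 278 with 20 CPM, 65 with 100 CPM, 796 with no minimum, 176 with median of ratios scaling and 14 with 2-fold. A minimum changes how many genes are tested, and the cause of the other shifts was not tested. Which genes passed 1.5-fold also depended on the score. With 1 score gene left out, 32 to 41 of the 64 genes stayed past it, and 21 to 28 of the 36. For O-Ex 101 to 108 of the 125 genes did, and 85 to 93 of the 116. With 120 spots, which include the 60, 10 of the 64, 12 of the 36, 64 of the 125 and 58 of the 116 did. For the shared higher genes (29) the counts were 15 with 120 spots and 17 with 100 CPM, and for the shared lower genes (69) 44 with 120 spots, 125 with 20 CPM, 31 with 100 CPM and 151 with no minimum. Among alternatives chosen after seeing the data, a common score minimum of 6.20 gave 163 genes higher and 80 lower in O-Ctrl. Over the amygdala-high spots alone (23, 23 and 5 spots) the counts were 166 and 159 in O-Ctrl and 649 and 505 in O-Ex, from fewer spots. Directions turned in few named genes. The log2 ratio of O-Ctrl over Y-Ctrl became 0.0011 for Cyp26b1 with 120 spots and -0.0012 for Penk with a score without Grp. Over the amygdala-high spots it became 0.086 for Sst, and that of O-Ex over O-Ctrl became 0.013 for Cyp26b1 (itself in the list that picks those spots, so that this value says little), -0.077 for Ptgds, 0.39 for Gpr162, -1.58 for Hba-a2, -0.93 for Hba-a1, -0.27 for Hbb-bt, -0.75 for Hbb-bs, -0.18 for Dhx30, -3.0 for Spink8 and -0.029 for Cplx2. The O-Ex levels behind these ratios come from 5 spots. Spink8 had 0 counts there, and the haemoglobin genes few.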
